A study of Mus musculus with 9 samples.

Results

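LM9 tumours were compared with LM1 tumours, the metastasis-derived models of the series. The members were chosen by the sample labels alone: 3 LM9 and 3 LM1 tumours, 6 of the 9 tumours sequenced, with all genes described and the 3 HR1 tumours left out of the comparison. HR1 is a mouse mammary cancer line from a tumour driven by mutant *PIK3CA*, expressed from the ubiquitous CAG promoter. LM1 and LM9 were each grown out from a lung metastasis of HR1 cells that had been mutagenised with a doxycycline-inducible *piggyBac* transposon. Every tumour of both groups therefore shares the HR1 origin, the *PIK3CA* mutation and the transposon system. Each model is 1 isolate, and a difference between LM9 and LM1 is a difference between 2 cell lines, not the effect of a treatment. For each tumour, 250000 cells in Matrigel and PBS were placed in the mammary fat pad of female NOD/SCID mice (strain label NOD.CB17-Prkcd<scid>/J) aged 4 to 8 weeks. The host lacks T and B cells but keeps macrophages, neutrophils and stroma. Tumours were taken before 1500 mm3, and GFP-positive cells were sorted for RNA-seq. The p-values below measure the spread between tumours of 1 line.

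Cancer cells that colonise an organ do so from different starting states, and lines grown from separate metastases of 1 parent often differ in identity, metabolism and growth. Hypoxia-inducible factor (HIF) switches on glucose uptake, glycolysis and angiogenic signals when oxygen is low. Type I interferon acts on promoters that hold an interferon-stimulated response element, and raises antiviral effectors and MHC class I. Both programmes have well-described DNA motifs, so that promoters can be shown beside the counts of their genes.

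The files held whole-number counts per gene. Totals were 45956132, 42001388 and 38877684 in LM1 replicates 1, 2 and 3, and 46681945, 44979432 and 44658779 in LM9 replicates 1, 2 and 3. Levels are given as CPM, which are counts divided by a library total scaled with TMM factors, and fold changes as log2 of LM9 over LM1 with the standard error (SE). A gene was called when its p-value in edgeR's quasi-likelihood F-test, adjusted over all genes tested by the Benjamini-Hochberg method, was under 0.05. Levels in tumours of 1 line correlated across genes with r from 0.986 to 0.9917, and levels in tumours of different lines with r from 0.9109 to 0.9277 (genes are not independent replicates). No pair of tumours was so close that it could be 1 library.

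LM9 and LM1 tumours differed over much of the transcriptome. Of 13691 genes tested, 7709 (56.3%) were called. Of these, 3871 were higher in LM9 (28.3% of those tested) and 3838 were lower (28.0%). The median absolute log2 fold change of called genes was 0.76, and 2680 called genes (19.6%) changed at least 2-fold. The CPM of the 3 LM9 tumours did not overlap those of the 3 LM1 tumours for 8738 genes (63.8%). Every list below is to be read against these shares. Small and large changes were distributed differently between the directions. At least 2-fold, 1422 genes were higher and 1258 lower in LM9 (1294 and 1368 when scaled by library size alone). At least 16-fold, 54 were higher and 231 lower. Accordingly, 66 genes had 3 counts or fewer in every LM9 tumour and a mean of at least 1 CPM in LM1, against 11 genes in the opposite direction. With the 9 tumours in 1 fit, where the spread between the HR1 tumours enters the error, 3102 genes were called and the counts of 43 of the 49 gene lists used here moved by over 1.5 times. HR1 replicate 1 stood apart from the other HR1 tumours, for example in *Nfib* (1247, 23.9 and 18.5 CPM in HR1 replicates 1, 2 and 3, scaled by library total) and *Dcn* (16345, 433 and 333 CPM). Without it, in a fit of 8 tumours added after seeing the data, 6413 genes were called and 8 of the 49 list counts moved by over 1.5 times.

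**Figure D1:**
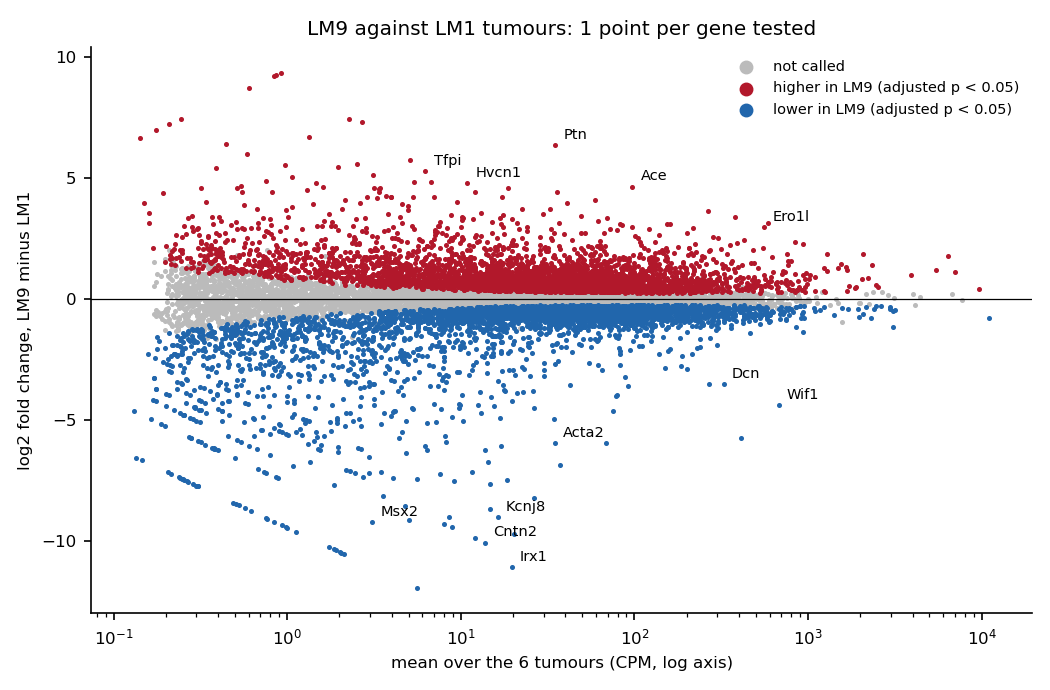
Each point is 1 of the 13691 genes tested, with the mean level over the 6 tumours on the x axis (CPM, log axis) and the log2 fold change of LM9 over LM1 on the y axis. Called genes are coloured by direction (3871 higher, 3838 lower), and the points far below 0 outnumber those far above it.

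The largest increases in LM9 were in genes of different kinds. *Ptn*, which encodes the heparin-binding growth factor pleiotrophin (GRCm38 chr6:36714924-36810179), was at 0.897, 1.04 and 0.563 CPM in the LM1 tumours and at 68.2, 66.4 and 71.6 CPM in the LM9 tumours (log2 6.35 ± 0.187 SE, edgeR adjusted p = 1.6e-09). *Ace*, the angiotensin-converting enzyme, went from 6.88, 8.62 and 6.98 CPM in LM1 to 189, 166 and 203 CPM in LM9 (log2 4.64 ± 0.140, adjusted p = 2e-09). Genes of this set were picked for a large change without overlap. *Cp*, the copper-carrying ferroxidase ceruloplasmin, was at 1.47, 1.57 and 1.51 CPM against 45.6, 27.3 and 35.3 CPM. *Tfpi*, the inhibitor of tissue factor, was at 0.321, 0.161 and 0.461 CPM against 13.4, 13.8 and 9.4 CPM. The proton channel gene *Hvcn1* rose 27.3-fold, the fibroblast growth factor *Fgf15* 28.0-fold and the interferon-regulated *Trim30d* 28.3-fold. *Mst1*, which encodes macrophage-stimulating protein, had at most 3 counts in each LM1 tumour and 4.5, 5.17 and 6.36 CPM in LM9, at least 76.3-fold higher. *Espnl*, *Ddit4l*, *Nrip2* and *Smim1* completed the 12 largest increases, with folds from 23.8 to 53.1. Among genes at 3 counts or fewer in LM1, the lipid droplet coat gene *Plin4* was at least 64.2-fold higher and the kidney developmental factor *Pax2* at least 27.1-fold higher. *Clps*, *Bglap*, *Kcnt1*, *Igsf21* and *Paqr6* were higher by at least 17.1- to 37.9-fold.

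The largest decreases included genes with almost no counts in LM9 tumours. Many of these were not expressed in HR1 either. Of 66 genes at 3 counts or fewer in every LM9 tumour, 12 had at least 1 CPM in all 3 HR1 tumours and 27 in none. Of those named here, *Gabra4*, *Cntn2*, *Ephb1* and *Lrat* were at or under 0.158 CPM in every HR1 tumour, whereas *Irx1* was at 21.5, 16.3 and 17.5 CPM. *Irx1*, an Iroquois homeobox factor (chr13:71958232-71963723), was at 41.8, 39.8 and 36.0 CPM in LM1 and at 0, 0.0232 and 0.0227 CPM in LM9. No LM9 tumour had over 3 counts, and the gene was at least 582-fold lower. The cell adhesion gene *Cntn2* was at 25.3, 35.4 and 21.3 CPM in LM1 and at least 406-fold lower, and *Rec114*, a gene of meiotic recombination, at least 355-fold lower. The ephrin receptor *Ephb1* (at least 263-fold), the splicing regulator *Raver2* (at least 253-fold), *Armcx2* (at least 238-fold), the GABA receptor subunit *Gabra4* (at least 166-fold), the retinol acyltransferase *Lrat* (at least 149-fold) and the homeobox factor *Msx2* (at least 91.3-fold) were likewise under the limit of 3 counts in each LM9 tumour. Of the genes that kept a few counts in LM9, *Tmem98* was 853-fold lower, the potassium channel *Kcnj8* 519-fold, the adhesion receptor *Adgrg2* 417-fold, *Prxl2a* 303-fold, *Cd244a* 202-fold and the unconventional myosin *Myo1d* 144-fold. These folds are fitted, rest on few LM9 counts and on the prior count of the fit, and cannot be set beside the lower bounds. *Mfap4*, a microfibril-associated glycoprotein with counts in both lines, went from 135, 138 and 162 CPM to 6.05, 5.63 and 5.75 CPM (log2 −4.64 ± 0.127, adjusted p = 1.2e-09).

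**Figure D2:**
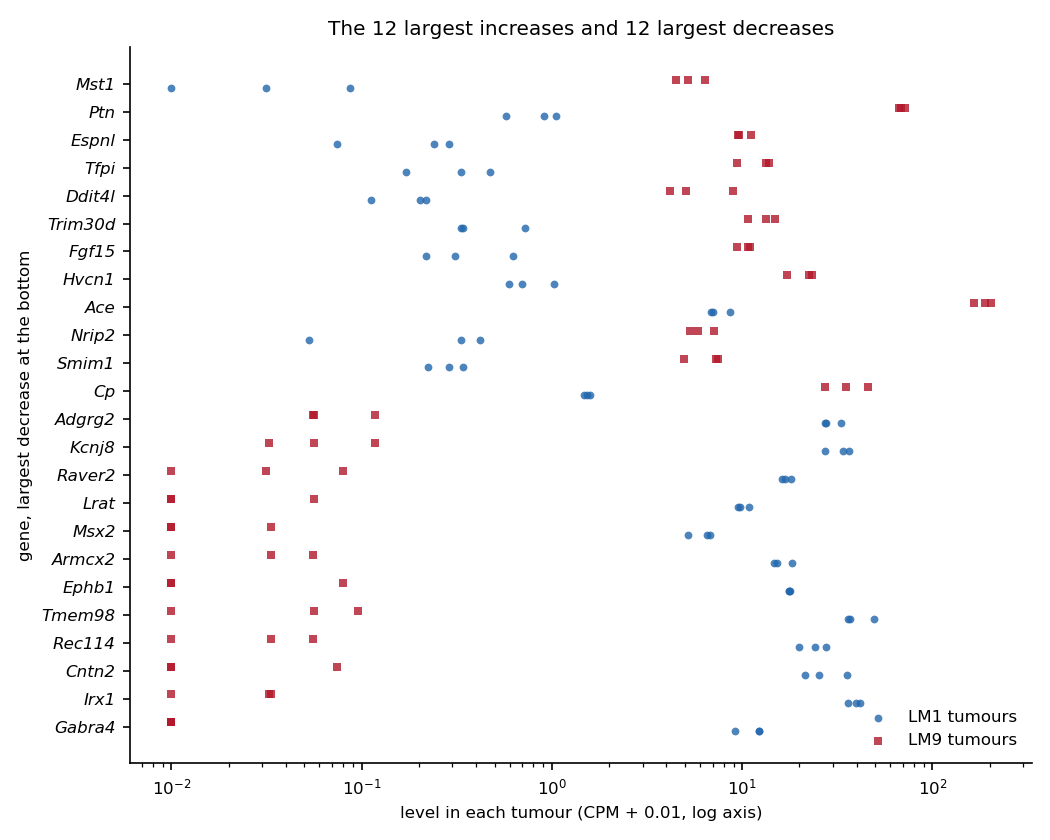
Levels in each of the 6 tumours (CPM + 0.01, log axis) of the 12 genes with the largest increase and the 12 with the largest decrease in LM9, 1 point per tumour coloured by line. The genes were chosen among those without overlap, so the separation of the lines is set by the choice, and the points give the levels from *Mst1* and *Ptn* to *Irx1* and *Gabra4*.

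A list of 13 genes held 10 that the study deals with and the related *Nfix*, *Nfic* and *Ero1b*, and among them LM9 and LM1 tumours differed most in *Ero1l* and *Nfia*. *Ero1l* encodes ERO1A, the endoplasmic reticulum oxidase that reloads protein disulfide isomerase and makes hydrogen peroxide (chr14:45283087-45318572). It was at 113, 133 and 133 CPM in LM1 and at 895, 1247 and 813 CPM in LM9 (log2 2.97 ± 0.166, adjusted p = 1.8e-07). The lowest LM9 tumour was far above the highest LM1 tumour. *Nfia*, a nuclear factor I gene (chr4:97578066-98118876), was at 2.65, 1.91 and 2.02 CPM in LM1 and at 25.2, 21.2 and 17.9 CPM in LM9 (log2 3.28 ± 0.189, adjusted p = 1.9e-07). *Nfib*, the nuclear factor I gene at the centre of the study (chr4:82290173-82506751), was high in both lines. Its levels were 800, 805 and 584 CPM in LM1 and 531, 590 and 425 CPM in LM9, and the lines overlapped. The fall of 0.50 on the log2 scale in LM9 (SE 0.154, adjusted p = 0.0165) was not called without LM1 replicate 1 (adjusted p = 0.0801), without LM9 replicate 3 (adjusted p = 0.0707) or with the 9 tumours in 1 fit (adjusted p = 0.812), and was called in the 8-tumour fit (adjusted p = 0.0399). With exon length as an offset it was larger (log2 −0.89, adjusted p = 1.6e-04). *Vegfa*, the main angiogenic growth factor, rose from 207, 319 and 219 CPM to 858, 663 and 557 CPM (log2 1.48 ± 0.196, adjusted p = 0.00013). The cell-cycle inhibitor *Cdkn1a* (log2 0.87) and the screen hit *Lrch3* (log2 0.73) were also higher, and the call of *Cdkn1a* was lost with the 9 tumours in 1 fit (adjusted p = 0.237). *Hif1a*, the oxygen-regulated HIF subunit, was lower at the RNA level, with 314, 366 and 299 CPM against 269, 246 and 246 CPM (log2 −0.36 ± 0.109, adjusted p = 0.0143), a call lost without LM9 replicate 3 (adjusted p = 0.0565) and in the fits of 9 and 8 tumours (adjusted p = 0.185 and 0.05). *Nfix* and *Foxp1* were lower with overlapping tumours, and the calls were lost when 1 tumour was left out: LM1 replicate 1 or 2 or LM9 replicate 1 or 3 for *Nfix* (adjusted p from 0.0676 to 0.125), and LM1 replicate 1 or 2 or LM9 replicate 2 or 3 for *Foxp1* (adjusted p from 0.0961 to 0.16). The 9-tumour fit called neither (adjusted p = 0.176 and 0.204), nor did the 8-tumour fit (adjusted p = 0.0904 and 0.074). Limma-voom did not call *Foxp1* (adjusted p = 0.0551). With exon length as an offset the fall of *Foxp1* went from a log2 of −0.44 to −0.79 (adjusted p = 1.8e-04). *Nfic*, *Sox6*, *Ero1b* and *Pecam1* were not called. *Nfic* (log2 −0.32, adjusted p = 0.0669) was called lower without LM1 replicate 3 (adjusted p = 0.0126), with DESeq2 (0.0469), scaled by library size alone (0.0406), with the replicate block (0.0413) and with exon length as an offset (0.00609). *Ero1b* (log2 −0.44, adjusted p = 0.102) was called lower without LM1 replicate 3 (0.0183) and with exon length as an offset (0.0342), as was *Pecam1* (log2 −1.28) without LM9 replicate 1. Of the 13 genes, 5 rose and 4 fell, and without LM9 replicate 3 the calls numbered 5. The study picked *Ero1l* by combining RNA-seq of high-*Nfib* models (LM1 and LM9) against low-*Nfib* models with published NFIB ChIP-seq. That contrast was not LM9 against LM1, but it used these lines, so the change of *Ero1l* is not independent evidence of a direction.

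Of the 39 HIF target genes tested, 30 were higher and 4 lower in LM9, with a median log2 fold change of 1.04. Their summed level was 7145 to 8195 CPM in the LM1 tumours and 18272 to 20980 CPM in the LM9 tumours. *Ndrg1*, a hypoxia- and stress-induced gene, was at 2569, 2783 and 3256 CPM in LM1 and at 9934, 10523 and 9179 CPM in LM9 (log2 1.78 ± 0.124, adjusted p = 7.2e-07). *Slc2a1*, the glucose transporter GLUT1, rose from 241, 307 and 311 CPM to 979, 1061 and 814 CPM. *Adm*, which encodes the vasodilator peptide adrenomedullin, rose from 5.04, 6.36 and 7.39 CPM to 32.7, 37.4 and 32 CPM. *Selenbp1*, a selenium-binding protein that oxidises methanethiol, showed the largest change of the list at log2 3.50 ± 0.177. The carbonic anhydrase *Car12* (log2 1.92), the MAX interactor *Mxi1* (log2 1.73), the lipid droplet regulator *Hilpda* (log2 1.83) and the mitophagy receptor *Bnip3* (log2 1.56) were higher without overlap. *Egln3*, a prolyl hydroxylase that marks HIF for decay and is itself a HIF target, was higher by a log2 of only 0.26. The 4 members that fell were *Angptl4* (log2 −1.97), the hormone gene *Stc2* (log2 −1.18) and the lysyl oxidases *Lox* and *Loxl2*. The latter pair was at or under 2.09 CPM in every tumour, and the calls were lost without LM1 replicate 1 or LM9 replicate 3 (*Lox*, adjusted p = 0.0827 and 0.0787) and without LM1 replicate 2 or 3 or LM9 replicate 2 or 3 (*Loxl2*, adjusted p from 0.0657 to 0.0883). The replicate block lost *Loxl2* too (adjusted p = 0.0563). Counted with the 9 tumours in 1 fit, 22 members were higher and 0 lower, and in the 8-tumour fit 28 and 2.

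Promoters of HIF targets were read from the RefSeq tables (GRCm38.p6, 250 bases before to 50 after the start). The core letters of the hypoxia response element, ACGTG on either strand, stood in 20 of the 31 HIF targets with an entry (64.5%), in 28.9% of the tested genes with an entry and in 21.8% of all 27025 promoters. The stretches of 4 members that rose are shown, 5′ to 3′ on the gene's strand, with the core in capitals. The 6 letters CACGTG in *Bnip3* hold the core on both strands. A match of letters is a description and does not show binding.
Ero1l (chr14:45318594-45318673, minus strand): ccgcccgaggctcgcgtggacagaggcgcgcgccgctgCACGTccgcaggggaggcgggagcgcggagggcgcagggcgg
Bnip3 (chr7:138909572-138909651, minus strand): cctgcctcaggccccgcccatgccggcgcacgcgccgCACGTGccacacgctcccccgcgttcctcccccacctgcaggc
Slc2a1 (chr4:119108665-119108744, plus strand): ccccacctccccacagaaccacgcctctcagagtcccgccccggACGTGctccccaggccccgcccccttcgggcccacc
Hilpda (chr6:29272545-29272624, plus strand): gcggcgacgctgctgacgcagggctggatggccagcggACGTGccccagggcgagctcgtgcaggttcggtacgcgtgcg

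Glycolysis genes rose in LM9, with 16 of 20 tested higher, 0 lower and a median log2 fold change of 0.78. The brain-type enolase *Eno2* went from 23.5, 29.4 and 33.8 CPM to 226, 142 and 149 CPM (log2 2.58 ± 0.199, adjusted p = 3.3e-06). *Hk1* and *Hk2*, the hexokinases that trap glucose in the cell, rose by log2 1.54 and 1.64, and the aldolase *Aldoc* by log2 1.80. The summed level of the list was 10216 to 12381 CPM in LM1 and 14422 to 16987 CPM in LM9. Not every abundant member took part, and *Pkm*, the most abundant, moved little. *Pkm*, the pyruvate kinase, was at 2646, 2586 and 3029 CPM against 2798, 3241 and 3034 CPM, and the lactate dehydrogenase *Ldha* at 1934, 1740 and 2314 CPM against 1954, 2530 and 2403 CPM, and neither was called. *Gapdh* had under 4 CPM in every tumour, and the gene has many near-identical copies, so its level is uncertain. Only 6 glycolysis genes were higher, and 0 lower, with the 9 tumours in 1 fit, and 13 were higher in the 8-tumour fit.

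Nuclear genes of the respiratory chain moved the other way. Of 31 tested, 0 were higher and 22 lower in LM9 (median log2 −0.44). *Ndufa4*, a cytochrome c oxidase-associated subunit, went from 184, 144 and 183 CPM to 67.1, 87.9 and 81.2 CPM (log2 −1.11 ± 0.134, adjusted p = 4.1e-05). The complex IV subunit *Cox5b* (log2 −0.96) and the complex III core protein *Uqcrc1* (log2 −0.74) were lower. Cytosolic ribosomal protein genes behaved alike, with 0 of 36 higher and 24 lower (median log2 −0.60). *Rpl8* was at 3798, 2977 and 4058 CPM in LM1 and at 2236, 2884 and 2531 CPM in LM9, and its call was lost with exon length as an offset (adjusted p = 0.088). Many ribosomal protein genes have processed copies that can share reads, so single members are uncertain.

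Fold changes also moved with the length of the exons, and both of these lists hold short genes. Genes of at least 5 CPM were split by exon length into 5 groups of like size. The shortest group (up to 2652 bases) had a median log2 fold change of −0.26, with 18.3% higher and 44.0% lower. The longest group (from 7895 bases) had a median of 0.28, with 43.0% higher and 14.4% lower. The median exon length was 2147 bases for the respiratory chain genes and 2030 bases for the ribosomal protein genes, against 4440 bases for all genes tested. It was 4646 bases for HIF targets and 3976 bases for interferon-stimulated genes. The trend differed between tumours of 1 line. Relative to the mean of the 6 tumours, the medians of the shortest group in LM1 were 0.165, −0.035 and 0.235 log2 in replicates 1, 2 and 3, and those of the longest group −0.163, 0.040 and −0.291. With exon length as an offset, 1 respiratory chain gene was higher and 17 lower (median log2 −0.29), and 0 ribosomal protein genes were higher and 20 lower (median log2 −0.38). With the 9 tumours in 1 fit, 8 respiratory chain genes and 2 ribosomal protein genes were lower and 0 of either list higher, and in the 8-tumour fit 18 and 21 were lower. GC content of the transcripts showed no such trend, with medians of 5 such groups from −0.015 to 0.038. The part of transcript length in both lists was not tested further.

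Interferon-stimulated genes made the most uniform list. Of 36 tested, 35 were higher and 1 lower in LM9, 30 of them at least 2-fold higher, with a median log2 fold change of 1.89. The summed level was 5391 to 5860 CPM in LM1 and 14130 to 17419 CPM in LM9, and the list kept 34 higher and 1 lower with the 9 tumours in 1 fit. *Oas3*, a sensor of double-stranded RNA (chr5:120753098-120777684), was at 50.5, 54.9 and 56.6 CPM in LM1 and at 342, 301 and 407 CPM in LM9 (log2 2.70 ± 0.129, adjusted p = 5.2e-08). *Irf7*, the transcription factor that amplifies the response, was at 605, 477 and 587 CPM against 1974, 1847 and 2211 CPM. *Usp18*, which removes ISG15 from proteins and damps the receptor, was at 123, 118 and 130 CPM against 508, 456 and 567 CPM. *Oasl1* (log2 2.30), *Ifi44* (log2 2.44), *Ifit3* (log2 2.24), *Rsad2* (log2 2.53) and the RNA helicase *Ifih1* (log2 1.96) rose without overlap. The ubiquitin-like *Isg15* rose by log2 1.26. The exception was *Ifi27*, which was at 485, 383 and 548 CPM in LM1 and at 102, 149 and 126 CPM in LM9 (log2 −1.91 ± 0.164, adjusted p = 4e-06). The *Oas* and *Gbp* genes are families of close copies, and reads may be split among them.

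The interferon-stimulated response element, searched as GAAANNGAAA or its reverse TTTCNNTTTC, stood in the promoters of 14 of the 25 interferon-stimulated genes with a RefSeq entry (56.0%). It was in 3.81% of the promoters of tested genes and in 3.99% of all promoters. Of the 4 members printed here, with the matches in capitals, *Ifit1* and *Ifit3* hold 2 copies each.
Oas3 (chr5:120777690-120777769, minus strand): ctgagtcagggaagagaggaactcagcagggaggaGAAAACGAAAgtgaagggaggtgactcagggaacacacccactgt
Rsad2 (chr12:26456528-26456607, minus strand): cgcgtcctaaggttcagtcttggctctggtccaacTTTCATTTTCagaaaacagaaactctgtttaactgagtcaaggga
Ifit3 (chr19:34583372-34583451, plus strand): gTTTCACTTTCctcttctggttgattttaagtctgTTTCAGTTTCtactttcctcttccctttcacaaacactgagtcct
Ifit1 (chr19:34640769-34640848, plus strand): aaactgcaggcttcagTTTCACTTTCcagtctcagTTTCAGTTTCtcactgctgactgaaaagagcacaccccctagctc

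MHC class I presentation genes rose with them. Of 20 tested, 16 were higher and 1 lower (median log2 1.00), and 5 of 18 promoters (27.8%) held the response element. *B2m*, the invariant light chain, was at 2895, 2240 and 2781 CPM in LM1 and at 5109, 4859 and 5686 CPM in LM9 (log2 0.98 ± 0.127, adjusted p = 7e-05). The heavy chains *H2-D1* and *H2-K1* rose by log2 1.30 and 1.14, the non-classical *H2-T23* by log2 1.95 and the peptide transporter *Tap1* by log2 1.17. *Cd274*, the checkpoint ligand PD-L1, went from 5.21, 6.2 and 5.68 CPM to 26.6, 21.4 and 23.4 CPM. *Psmb10*, an immunoproteasome subunit, had a log2 fold change of −0.41 with overlapping tumours, and lost its call without LM1 replicate 1 or 3 or LM9 replicate 1 or 2 (adjusted p from 0.055 to 0.0831). With exon length as an offset its change was −0.159 (adjusted p = 0.191).

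**Figure D3:**
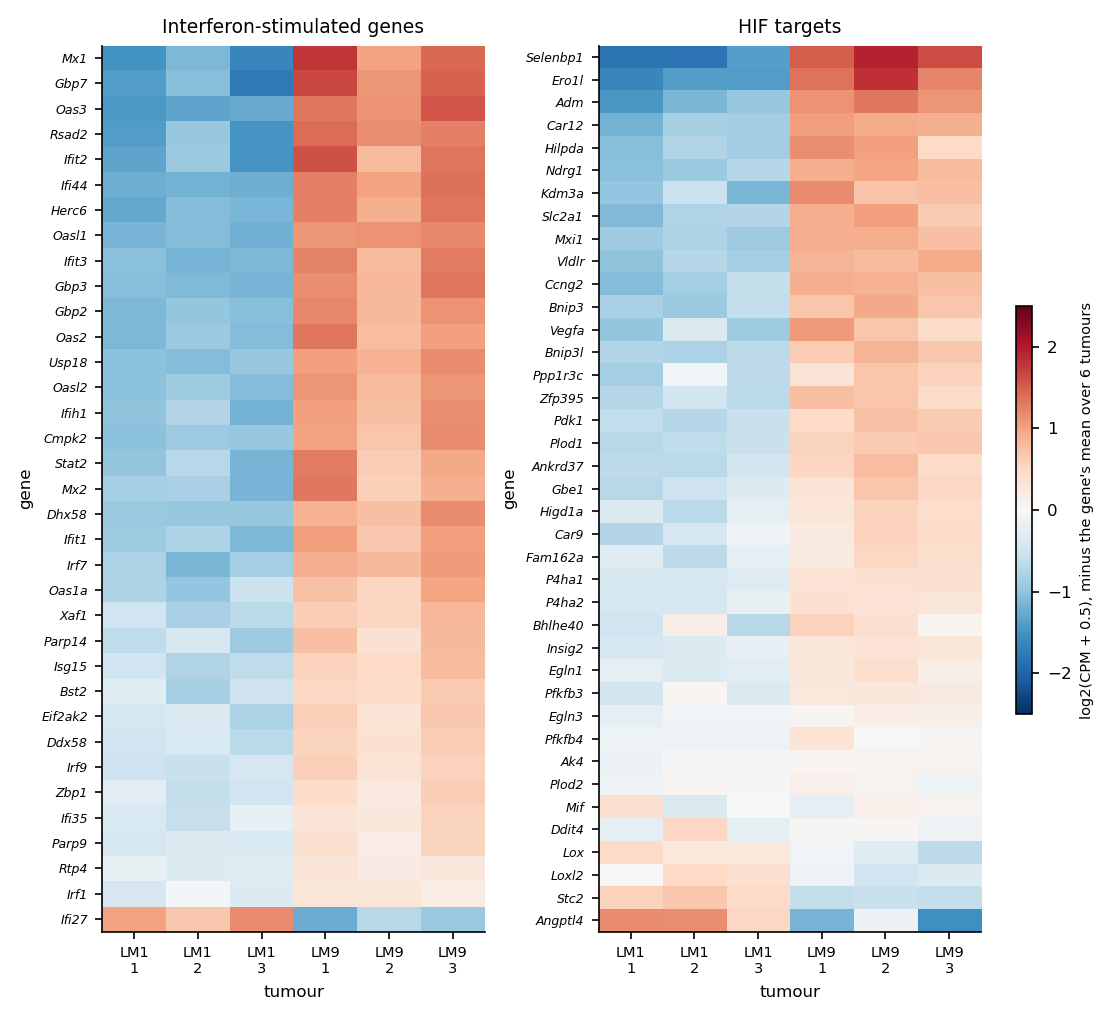
Heat maps of 35 interferon-stimulated genes and of the 39 HIF targets, 1 row per gene and 1 column per tumour, coloured by log2(CPM + 0.5) minus the gene's mean over the 6 tumours. The 3 LM9 columns are above the mean in 34 of the 35 interferon-stimulated genes drawn, with *Ifi27* reversed, and the HIF target rows that go the other way include *Stc2* and *Angptl4*.

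Genes of DNA replication and S phase were lower in LM9. None of 30 tested was higher and 26 were lower (median log2 −0.81), and the summed level was 3325 to 3509 CPM in LM1 against 1693 to 2042 CPM in LM9. *Mcm5*, a subunit of the replicative helicase, was at 331, 364 and 393 CPM against 102, 126 and 113 CPM (log2 −1.67 ± 0.116, adjusted p = 6.9e-07). The helicase subunits *Mcm3* (log2 −1.18) and *Mcm6* (log2 −1.10), the ligase *Lig1* (log2 −1.88) and the ribonucleotide reductase subunit *Rrm2* (log2 −1.15) fell too. With the 9 tumours in 1 fit, 18 members were lower and 0 higher, and in the 8-tumour fit 23 were lower. Mitotic genes did not follow to the same extent. Of 30 tested, 3 were higher and 11 lower (median log2 −0.09). *Cdk1*, the mitotic kinase, and its cyclins *Ccna2* and *Ccnb1* had log2 fold changes of −0.54, −0.56 and −0.57. *Kif20a*, a kinesin of cytokinesis, rose from 138, 147 and 136 CPM to 227, 235 and 241 CPM (log2 0.74). The gene lies on chromosome 18, where the median log2 fold change of genes of at least 5 CPM was 0.59. The part of this position in the rise of *Kif20a* was not tested. *Mki67* was at 87.7, 97.3 and 30.7 CPM against 125, 116 and 99.9 CPM and was not called. The mitosis count depended on LM9 replicate 1, without which 9 members were called, and 9 were called in the 8-tumour fit. Whether the replication and mitosis lists differ from each other was not tested.

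p53 targets and cell-cycle inhibitors were divided, with 10 higher and 6 lower of 22. *Trp53* itself was lower (log2 −0.68), as were its targets *Phlda3* (135, 114 and 145 CPM against 33.0, 32.9 and 30.5 CPM), *Zmat3* (log2 −0.90) and *Pmaip1* (log2 −3.53). *Trp53inp1* (log2 1.82), *Btg2* (log2 1.40) and the inhibitor *Cdkn1b* (log2 0.91) were higher.

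Endoplasmic reticulum folding genes were nearer to balance, with 9 higher and 5 lower of 27. *Ddit3*, the stress factor CHOP, was at 111, 99.8 and 111 CPM in LM1 and at 460, 432 and 417 CPM in LM9 (log2 2.03 ± 0.103, adjusted p = 8.2e-08). *Ppp1r15a*, which restarts translation after stress, rose by log2 1.70 and the sensor *Ern1* by log2 1.45, but its effector *Xbp1* fell by 0.61. The chaperone *Hspa5* was at 2300, 2218 and 1916 CPM against 2572, 2483 and 2668 CPM (adjusted p = 0.0595). ATF4 and amino acid genes also split, 12 higher and 5 lower of 29. *Cth* and *Aldh1l2* rose by log2 1.38 and 1.43, *Psat1*, a serine synthesis enzyme, and *Chac1*, a glutathione-degrading enzyme, fell (log2 −0.65 and −0.89). The stress hormone *Fgf21* fell by 0.34 on the log2 scale, and its change was 0.042 with exon length as an offset. That call was lost without LM1 replicate 1 (adjusted p = 0.0911), LM9 replicate 2 (0.0941) or LM9 replicate 3 (0.054), and in the fits of 9 and 8 tumours (0.804 and 0.104).

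Cholesterol synthesis genes were mostly higher in LM9, with 15 of 23 higher and 2 lower (median log2 0.47). *Insig1*, which holds the SREBP factors back when sterols are plentiful, went from 41.4, 46.1 and 45.2 CPM to 96.1, 102 and 103 CPM (log2 1.18 ± 0.101, adjusted p = 3.2e-06), and the pathway enzymes *Sqle* and *Hmgcs1* rose by log2 0.77 and 0.85. In the 9-tumour fit 3 members were higher, and in the 8-tumour fit 10. Fatty acid genes were mixed, with 10 higher and 4 lower of 23. The desaturase *Scd1* rose by log2 1.30, and *Fasn*, the fatty acid synthase, fell by 0.41 on the log2 scale, which was lost without LM9 replicate 1 (adjusted p = 0.0506).

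Markers of the mammary epithelium were found in part. Of 28 luminal genes 16 were listed in the tables used here, and they summed to 629 to 737 CPM in LM1 and 360 to 373 CPM in LM9. Of 24 basal genes 19 were listed, with 500 to 539 CPM in LM1 and 341 to 377 CPM in LM9. The keratin genes *Krt7* and *Krt8* and the claudins *Cldn3*, *Cldn4* and *Cldn7* were not among the genes listed, and *Epcam* and *Cdh1* had under 1 CPM in every tumour. *Vim*, the mesenchymal intermediate filament, was among the most abundant genes, at 8599, 7639 and 8753 CPM in LM1 and 9874, 12438 and 10588 CPM in LM9 (log2 0.40 ± 0.122, adjusted p = 0.0161). The *Vim* call was lost without LM1 replicate 2 (adjusted p = 0.0519) or LM9 replicate 2 (adjusted p = 0.0681). Of the 19 basal genes 4 were higher and 8 lower (63.2% called), and 1 and 6 in the 8-tumour fit. *Krt14*, the basal keratin (chr11:100203162-100207510), was at 178, 155 and 176 CPM in LM1 and at 12.2, 15.6 and 14.1 CPM in LM9 (log2 −3.60 ± 0.128, adjusted p = 5.8e-09). *Acta2*, smooth muscle actin (chr19:34240336-34255585), was at 73, 62 and 70 CPM against 0.965, 0.95 and 1.39 CPM (log2 −5.95 ± 0.174, adjusted p = 1.6e-09). *Lgr5*, an R-spondin receptor known from epithelial stem cells, fell by 4.65 on the log2 scale. *Mylk*, the myosin light chain kinase of contractile cells, went against *Acta2* and rose by log2 1.12. Of 14 luminal genes 2 were higher and 7 lower. *Cd24a* fell from 563, 502 and 627 CPM to 285, 290 and 280 CPM and the lipocalin *Lcn2* was lower (log2 −1.73), whereas the oestrogen receptor *Esr1* rose by log2 0.47, which was not called with exon length as an offset. *Xdh*, the milk fat globule enzyme xanthine dehydrogenase, rose from 50.6, 51.8 and 49.9 CPM to 394, 343 and 419 CPM (log2 2.92 ± 0.112, adjusted p = 1e-08). Only 3 of 14 milk and alveolar genes were listed, without the caseins, *Wap* or *Lalba*. Beside *Xdh*, *Stat5a* rose (log2 0.73), and *Btn1a1* fell (log2 −2.21, at or under 1.66 CPM in every tumour).

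EMT factors and mesenchymal genes showed no common direction, with 8 higher and 6 lower of 23 (median log2 −0.02). *Zeb1* and *Zeb2* were higher by log2 0.70 and 0.76. *Snai1* (131, 142 and 119 CPM against 151, 125 and 105 CPM) and *Snai2* were not called. *Twist1* was lower by 0.63 on the log2 scale, and *Twist2* went from 15.8, 12.9 and 15.4 CPM to 0.772, 0.232 and 0.84 CPM. Fibronectin, *Fn1*, rose from 825, 1155 and 707 CPM to 3322, 3627 and 2825 CPM (log2 1.86 ± 0.178, adjusted p = 9.3e-06).

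Matrix genes moved in both directions. Of 31 tested, 7 were higher and 10 lower (54.8% called), and the summed level was 27845 to 36014 CPM in LM1 and 26733 to 30798 CPM in LM9. *Col1a1*, the most abundant, was at 7597, 9407 and 6405 CPM against 7733, 7568 and 7307 CPM and was not called. Among the members that fell, *Dcn*, decorin, was at 572, 579 and 649 CPM in LM1 and at 76.7, 62.2 and 16 CPM in LM9, *Lum*, lumican, at 456, 451 and 581 CPM against 78, 20 and 31.6 CPM, and elastin, *Eln*, at 149, 175 and 154 CPM against 28.2, 15.1 and 7.09 CPM. Relative to the line's mean, the levels of these genes varied more among the LM9 than among the LM1 tumours, and each LM9 tumour was below every LM1 tumour. *Bgn*, biglycan, and the laminin chain *Lama4* were lower (log2 −1.19 and −6.26). *Lama5*, the laminin chain of epithelial and endothelial basement membranes, rose by log2 1.76, and *Spp1*, osteopontin, went from 135, 112 and 121 CPM to 1130, 848 and 1200 CPM (log2 3.11 ± 0.150, adjusted p = 5.2e-08). Among proteases and inhibitors 12 were higher and 9 lower of 28. The gelatinase *Mmp2* rose from 30.8, 30.7 and 35.4 CPM to 378, 254 and 194 CPM and the cathepsin *Ctsl* by log2 1.33, and the protease inhibitor *Serpine2* fell by 2.94. Of 15 integrin genes, 9 were higher and 3 lower, and 5 and 2 in the 8-tumour fit. Their median exon length was 7015 bases, and 7 were higher and 3 lower with exon length as an offset. *Itgb7* rose by log2 4.42 and *Itgb2*, usually a leukocyte integrin, by log2 2.66 (4.55, 5.42 and 4.53 CPM against 20.8, 27 and 43.7 CPM), while *Itgb3* fell by 2.90.

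Wnt pathway genes were lower in LM9, with 4 higher and 22 lower of 35 (median log2 −0.60). *Wif1*, a secreted Wnt inhibitor, was at 1305, 1226 and 1348 CPM in LM1 and at 81.9, 78 and 25.1 CPM in LM9 (log2 −4.39 ± 0.444, adjusted p = 0.00014). The ligand *Wnt5a* (log2 −1.39), the inhibitor *Sfrp1* (log2 −3.42) and the nuclear factor *Lef1* (log2 −1.86) also fell. The co-receptor *Lrp5* rose from 95.2, 116 and 89.4 CPM to 298, 274 and 275 CPM and the ligand *Wnt7b* by log2 0.84. *Axin2*, the common readout of the pathway, was at 403, 523 and 311 CPM against 475, 381 and 345 CPM and was not called. In the 9-tumour fit 1 member was higher and 10 lower, and in the 8-tumour fit 4 and 17.

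The Notch list had 3 genes higher and 9 lower of 19. The ligand *Dll4* went from 35.3, 36.1 and 24.9 CPM to 2.51, 3.41 and 2.34 CPM (log2 −3.55 ± 0.198, adjusted p = 1.6e-07), and the target genes *Hey1* (at least 34.7-fold, with at most 3 counts in each LM9 tumour) and *Hey2* (log2 −3.85, on few counts) fell. The receptors *Notch3* and *Notch1* rose by log2 1.80 and 0.95. In the TGF-beta and BMP list 6 were higher and 11 lower of 28, with the BMP inhibitor *Nog* (log2 −2.02), the activin subunit *Inhbb* (log2 −1.66) and *Tgfb3* (log2 −0.97) lower, and *Id2* (log2 1.28) higher. Of 25 homeobox factors 3 were higher and 12 lower. *Hoxc5* and *Hoxc6*, neighbours of the HoxC cluster, fell by log2 changes of −4.73 and −4.70, and *Hoxd10* (log2 −2.15) was lower as well.

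In the IGF list 9 of 14 genes were higher in LM9 and 2 lower (median log2 0.96). These are long genes, with a median exon length of 6862 bases, and with exon length as an offset 9 were higher and 3 lower (median log2 0.67). The binding protein *Igfbp2* was at 3676, 3322 and 2977 CPM against 7373, 8820 and 6606 CPM (log2 1.19 ± 0.135, adjusted p = 2.7e-05). The RNA-binding *Igf2bp3* and *Igf2bp2* rose by log2 3.44 and 2.10 and the scavenging receptor *Igf2r* rose 2.82-fold. The ligand *Igf1* went from 13.7, 14.1 and 14.3 CPM to 0.515, 0.278 and 0.409 CPM (log2 −5.11 ± 0.218, adjusted p = 2.5e-08). Of the ErbB ligands, *Hbegf* (log2 1.61) and *Btc* (3.18, 5.58 and 4.86 CPM against 16.4, 14.9 and 23.1 CPM) were higher, and *Tgfa* and *Epgn* lower. MAPK output genes had 10 higher and 1 lower of 18, led by the phosphatase *Dusp4* (37.4, 51.2 and 37.2 CPM against 146, 139 and 115 CPM). Among angiogenic factors 11 were higher and 8 lower of 27. The receptor *Flt1* (log2 1.31) and *Vegfb* (log2 1.05) rose with *Vegfa*, while *Pgf* (log2 −0.85) and *Angpt1* (log2 −1.20) fell.

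Cytokine genes were mixed, with 15 higher and 10 lower of 32. *Tnf* went from 3.29, 4.56 and 2.99 CPM to 30.1, 49.2 and 28.3 CPM (log2 3.31 ± 0.245, adjusted p = 2.1e-06), the receptor *Il18r1* from 12.1, 12.2 and 13.2 CPM to 122, 111 and 144 CPM, and the alarmin *Il33* from 383, 419 and 408 CPM to 839, 789 and 938 CPM. The interferon-inducible chemokine *Cxcl10* rose by log2 1.23. The acute-phase gene *Saa3* and the chemokine *Cxcl14* fell (log2 −4.50 and −1.66). *Nos2*, the inducible nitric oxide synthase, was at 11.8, 22.8 and 20.6 CPM against 171, 145 and 141 CPM, while *Odc1* and *Srm*, enzymes of polyamine synthesis, fell (*Odc1* log2 −0.86; *Srm* 416, 378 and 409 CPM against 175, 240 and 187 CPM). In the iron list 6 were higher and 7 lower of 18: beside *Cp*, the reductase *Steap3* rose by log2 1.33, and *Steap4* went from 43.3, 48.6 and 59.1 CPM to 1.46, 3.41 and 1.82 CPM.

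**Figure D4:**
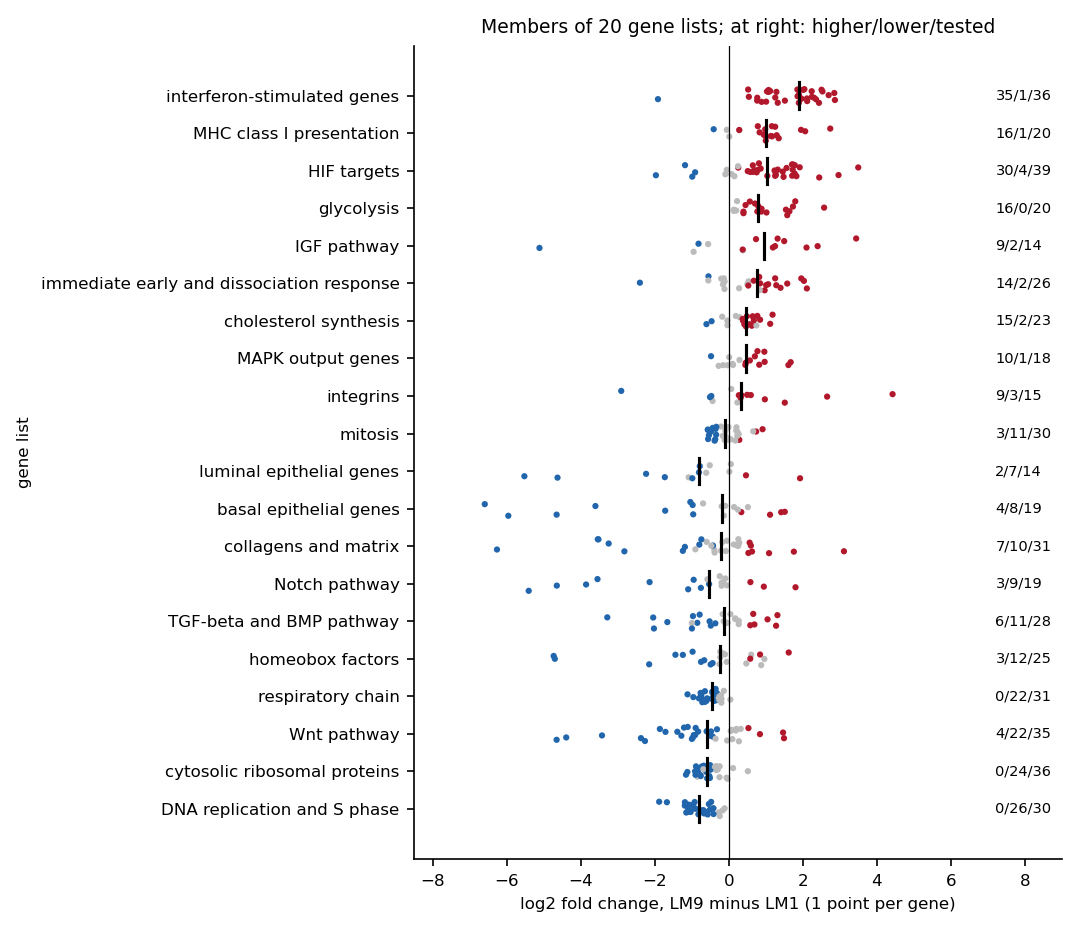
Log2 fold change of LM9 over LM1 for each tested gene of 20 lists, 1 point per gene, red where called higher, blue where called lower and grey where not called, with a black bar at the list's median and the numbers higher, lower and tested at the right. Interferon-stimulated genes (35 of 36 higher) and DNA replication genes (26 of 30 lower) are the most one-sided.

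Immediate early and dissociation genes, which respond to tissue handling within minutes as well as to growth signals, also moved with the lines. Of 26 tested, 14 were higher and 2 lower (median log2 0.75). *Jun* was at 951, 988 and 655 CPM in LM1 and at 2124, 2791 and 1395 CPM in LM9, and *Egr1* at 702, 928 and 439 CPM against 1500, 1641 and 911 CPM, with overlap. The *Egr1* call was lost without LM9 replicate 1 (adjusted p = 0.0669) or 2 (adjusted p = 0.055). In each line replicate 3 was the lowest for both genes. *Fos* was not called, and the heat shock gene *Hspa1a* was lower (log2 −2.40). *Hspa1a* has a near-identical neighbour, so its reads are uncertain. These genes overlap the MAPK output list in *Egr1*, and the part of handling in either list was not tested.

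Markers of host cells were low but not absent in the sorted cells. In such bulk samples, fewer cells of a type and less RNA per cell cannot be told apart. The 14 leukocyte markers summed to 139 to 149 CPM in LM1 and 79.1 to 135 CPM in LM9, with 1 higher and 8 lower. The one that rose was *Itgb2*, and *Ptprc*, which encodes CD45, was at 4.25, 4.98 and 2.48 CPM against 6, 3.2 and 4.77 CPM. The 16 macrophage markers summed to 346 to 416 CPM in LM1 and 306 to 392 CPM in LM9, with 1 higher and 8 lower (median log2 −0.55). Without *Cd68*, the one that rose, they summed to 328 to 400 CPM in LM1 and 168 to 283 CPM in LM9. The complement genes *C1qa*, *C1qb* and *C1qc* fell (log2 −1.83, −1.80 and −1.78), and *Cd68*, a lysosomal protein that other cells also make, rose from 16.2, 18 and 18 CPM to 107, 137 and 139 CPM. Of 11 neutrophil markers 5 were listed, with 0 higher and 1 lower. Of 16 markers of T, B and NK cells only 3 were listed, and these summed to at most 1.28 CPM. In the 8-tumour fit 1 leukocyte marker was higher and 1 lower. The part of host leukocytes in the rise of the interferon-stimulated genes and *Tnf* was not tested. Erythroid markers fell in 3 of 4, with the globin *Hbb-bs* at 43.5, 13.3 and 16.3 CPM against 4.61, 4.45 and 10.8 CPM. Without LM1 replicate 3 or LM9 replicate 1 only 1 erythroid marker was called. Skeletal muscle markers fell in 2 of 4, and in 1 without LM1 replicate 1 or 3 or LM9 replicate 2 or 3. One that fell, *Tnnc2*, had a log2 fold change of −0.012 with exon length as an offset (edgeR adjusted p = 0.956). Of 3 adipocyte markers 1 was higher and 1 lower, and without any 1 tumour other than LM9 replicate 3 only 1 was called.

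Stromal lists hold genes that the tumour cells of these lines may express. Of 14 fibroblast markers, 3 were higher and 7 lower, with *Dcn*, *Lum* and *Fap* lower and *Fbln1* and *Pdgfra* higher. Pericyte and smooth muscle markers had 1 higher and 6 lower of 9, including *Acta2* and *Kcnj8*. Of 9 endothelial markers tested, 4 were higher and 1 lower, and 2 and 1 in the 8-tumour fit. *Cdh5*, VE-cadherin, was at 149, 194 and 137 CPM in LM1 and at 232, 257 and 231 CPM in LM9 and *Plvap* at 67.2, 57.8 and 69.1 CPM against 129, 120 and 131 CPM, whereas *Pecam1* stayed at or under 1.27 CPM in each tumour and *Ptprb* fell by 4.86 on the log2 scale. The part of host cells in the endothelial and matrix results was not tested.

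Fold changes were not spread evenly over the genome. Among 10193 genes of at least 5 CPM with a position, the median log2 fold change was 0.01, with 30.4% higher and 28.5% lower. On chromosome 18 the median of 277 genes was 0.59, with 181 higher (65.3%) and 14 lower (5.05%). Relative to the LM1 mean, the chromosome 18 median was 0.605, 0.622 and 0.533 in LM9 replicates 1, 2 and 3, and −0.012, 0.008 and 0.005 in the LM1 tumours. The difference between the lines had a median of 0.483 with exon length as an offset. Relative to the mean of the 3 HR1 tumours, the chromosome 18 median minus the median of all genes was −0.362, −0.339 and −0.405 log2 in LM1 and 0.082, 0.144 and 0.106 log2 in LM9. With only HR1 replicates 2 and 3 as the reference it was −0.332, −0.308 and −0.382 in LM1 and 0.187, 0.182 and 0.121 in LM9. The other chromosomes had medians from −0.22 (chromosome 13) to 0.19 (chromosome 19). Chromosomes 1, 8, 12 and 13 had more than 40% of their genes lower. Blocks were found as runs of 41 neighbouring genes with a median at least 0.4 from that of all genes, merged where they overlapped and went in the same direction. There were 18 such blocks, 1 of them with 271 of the 277 genes of chromosome 18. On chromosome 8 the genes from 12873806 to 25754474 were higher (28 of 44, 1 lower, median 0.45), and those from 70220172 to 85700952 (70 of 131 lower, median −0.48) and from 94214564 to 128733579 (119 of 216 lower, median −0.40) were lower. The block on chromosome 19 (24294794 to 36621135, median 0.53) holds *Vldlr*, *Ifit3* and, against its direction, *Acta2*. *Mcm5* and *Hhip* lie in the lower block of chromosome 8, and *Kif20a* in the block of chromosome 18. Copy number was not measured here.

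**Figure D5:**
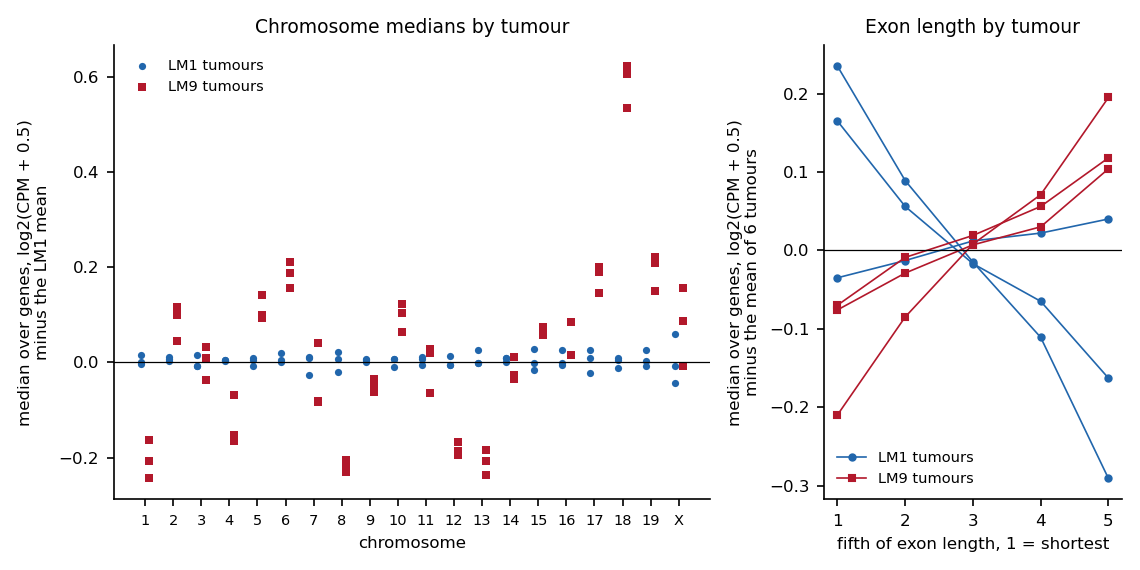
Left, median log2 difference from the LM1 mean of the genes on each chromosome, 1 point per tumour. Right, median log2 difference from the mean of the 6 tumours in 5 groups of genes by exon length, 1 line per tumour. Chromosome 18 stands at 0.533 to 0.622 in the LM9 tumours, and the length trend runs in opposite directions in LM9 and in LM1 replicates 1 and 3, with LM1 replicate 2 nearly flat.

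A short stretch of chromosome 4 was higher in LM9. From 98923810 to 99987294, 7 neighbouring genes, among them *Usp1*, *Atg4c*, *Alg6*, *Itgb3bp*, *Efcab7* and *Pgm1*, were each at least 2-fold higher, with a median log2 fold change of 1.83. *Atg4c*, an autophagy protease, was at 7.78, 9.1 and 8.21 CPM in LM1 and at 86.5, 104 and 79.9 CPM in LM9 (log2 3.43 ± 0.138, adjusted p = 1.5e-08). *Alg6*, a glucosyltransferase of N-glycan assembly, was at 11.7, 12 and 12.5 CPM against 108, 123 and 105 CPM (log2 3.21 ± 0.114, adjusted p = 5.8e-09). *Nfia* lies at lower coordinates than this stretch, and *Raver2*, at least 253-fold lower, lies beyond it. *Nfib* lies where 2 of the chromosome blocks overlap. The block from 57943373 to 86612075 had 8 of 45 genes higher and 23 lower (median −0.405), and that from 72109945 to 100444806 had 21 of 42 higher and 14 lower (median 0.362). In these blocks, *Megf9* (log2 −2.38) and the corepressor *Tle1* (log2 −1.61) were lower, whereas *Mpdz* (81278499 to 81442897), a scaffold protein of tight junctions, rose from 37.9, 51.4 and 32.1 CPM to 484, 555 and 440 CPM (log2 3.61 ± 0.179, adjusted p = 9.9e-08).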

How the data were processed

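The authors aligned single-end 50-nt reads of stranded TruSeq mRNA libraries to mm10 with STAR and counted read 5′ ends over the union of each gene's exons with qCount of QuasR. The deposited values are these raw counts, 1 table per tumour, by Entrez number. For the RNA-seq counts, the strand setting and the versions of STAR and QuasR are not given in the sources used here. Groups came from the sample titles. Of 14108 genes listed, 14089 were matched to a symbol and 13508 to a GRCm38 position, the build of mm10.

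The 6 tumours were fitted in edgeR 4.0.16 (R 4.3.3): filterByExpr kept 13691 genes and left out 417, TMM factors were 0.96 to 1.033, and LM9 was compared with LM1 by the robust quasi-likelihood F-test without covariates, adjusted by Benjamini-Hochberg at 0.05. SE is the absolute log2 fold change over the root of F. HR1 tumours were left out of the main fit so that their spread did not enter the error. Folds against a line with at most 3 counts in every tumour were computed against 3 counts per library. This limit covers counting error only. An exact permutation test of 3 against 3 tumours cannot go below p = 0.1 and was not used.

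The genes named were the 12 largest increases and decreases (called, at least 5 CPM in the higher line, no overlap), the 8 with the highest mean among genes at 3 counts or fewer in 1 line, the 4 called members of smallest adjusted p in each direction and the most abundant member of each list, the study's genes, the 10 smallest adjusted p-values and 3 genes per chromosome block. Other list members named, among them *Bnip3*, *Hilpda*, *Hk2*, *Rsad2*, *H2-K1*, *Tap1*, *Mki67*, *Ldha*, *Fos*, *Axin2*, *Snai1*, *Zeb1*, *Cdh1* and *Ptprc*, were chosen for their role after their values were seen. The comparison and the 49 lists were chosen with earlier results of these data known. With lists chosen this way, no set test was run, and lists are described by counts and medians beside those of all genes.

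Alternatives were other size factors, filters and tools (DESeq2 1.42.0, voom of limma 3.58.1), all 9 tumours, leaving out each tumour, a replicate block, and thinned counts. Exon length and GC content as offsets, and 8 tumours (all but HR1 replicate 1), were added after seeing the data. Promoters came from RefSeq (GRCm38.p6). Python 3.11.15 with pandas 2.3.3, numpy 2.4.6 and matplotlib 3.10.9 made the tables and plots.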

Additional observations from a re-analysis of the deposited data

How the results depend on the processing

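The count of called genes (7709) was 6348 to 7995 with each tumour left out in turn, 7664 after thinning to the smallest total, 7756 with DESeq2 and 7786 with limma-voom. It was 3102 with the 9 tumours in 1 fit, 6413 with 8 (all but HR1 replicate 1) and 1393 when edgeR's glmTreat asked for more than a 2-fold change. Scaled by library size alone, 7747 genes were called, 3486 higher and 4261 lower, so the balance of directions depends on the scaling. The count at least 2-fold (2680) was 1584 with the 9 tumours, 2525 with the 8 and 2544 to 2875 with each tumour left out. The labels do not say whether replicate numbers pair the tumours. Deviations of same-numbered tumours from their line's mean correlated at −0.034, −0.091 and 0.397, and those of differently numbered tumours at −0.403 to 0.423. With 3 tumours per line the deviations are not independent, so these values cannot decide whether replicates share a batch. With the replicate block 7644 genes were called, 2667 of them at least 2-fold. Scaling by library size alone moved the median of chromosome 18 from 0.594 to 0.541, exon length as an offset to 0.483, and length with GC content to 0.52. Only *Fgf21* among the called named genes changed direction, to 0.042 with exon length as an offset. Of those not called, *Sox6* went from 0.48 to −0.17 without LM9 replicate 2. The length offset made the change over 1.5 times larger in 4 called named genes, including *Nfib*, *Foxp1* and *Fasn*, and over 1.5 times smaller in 26, including *Rpl8*, *Esr1*, *Psmb10*, *Twist1*, *Notch1*, *Nqo1* and *Slit2*. Of 378 called named genes, 340 stayed called in all alternatives other than the 9-tumour fit, the 8-tumour fit and glmTreat, which lost 163, 40 and 190. The genes lost in the 9-tumour fit included *Nfib*, *Nfix*, *Foxp1*, *Hif1a*, *Fgf21*, *Vim*, *Egr1*, *Spp1*, *Dcn*, *Bgn*, *Igfbp2*, *Dll4*, *Notch3*, *Sfrp1*, *Stc2*, *Angptl4*, *Car12*, *Cdh5*, *Pdgfra*, *Fbln1*, *Cd24a*, *Lcn2*, *Flt1*, *Pgf*, *Hoxd10*, *Itgb3*, *Cdkn1a*, *Cdk1*, *Rrm2*, *Rpl8*, *Chac1* and *Pax2*. Leaving out 1 tumour lost a call in 32, including *Nfib*, *Hif1a*, *Vim* and *Egr1*. List counts moved by over 1.5 times in 43 of 49 lists with the 9 tumours and in 8 with the 8, and the medians of 40 lists kept their sign in every alternative. Depth limits the genes under 1 CPM, whose folds rest on few counts.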

Other observations

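Further gene groups held members that moved either way. Axon guidance ligands and receptors had 16 higher and 13 lower of 37 in LM9. *Slit2*, a repulsive guidance ligand, was at 21, 30.7 and 20.9 CPM in LM1 and at 60.4, 50.1 and 65.6 CPM in LM9, and the semaphorin receptor *Plxna4* at 8.4, 12.8 and 6.91 CPM against 0.536, 0.162 and 0.136 CPM. Of 30 NRF2 and glutathione genes 11 were higher and 8 lower, with *Hmox1*, haem oxygenase, at 156, 216 and 155 CPM against 293, 313 and 295 CPM and *Nqo1*, the quinone reductase, at 31.7, 30.3 and 36.7 CPM against 16, 24.3 and 21.2 CPM. YAP/TAZ targets had 6 higher and 4 lower of 20. Arginine and polyamine genes had 5 higher and 5 lower of 18. Of 16 potassium channel genes 5 were higher and 2 lower, and the subunit *Kcne4* was at 65.9, 78.6 and 77.8 CPM against 187, 165 and 176 CPM. DNA methylation and Polycomb enzymes had 5 higher and 4 lower of 22. *Ezh1* and *Cbx7* rose (log2 1.39 and 1.13), and *Tet2*, which oxidises methylcytosine, was at 6.18, 8.69 and 2.64 CPM against 41.2, 20.8 and 20 CPM. Of 10 genes of a list of imprinted and X-linked silencing genes 3 were higher and 6 lower (90.0% called, median −0.81). The list summed to 627 to 709 CPM in LM1 and 74.7 to 141 CPM in LM9, and without *Dcn* to 54.8 to 60.2 CPM and 54.3 to 64.2 CPM. In it, *H19* was at 3.5, 4.96 and 4.86 CPM against 1.33, 1.14 and 0.568 CPM. Of 14 milk and alveolar genes only 3 were listed, 2 higher and 1 lower.

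Neighbouring genes of at least 1 CPM that were each called and at least 2-fold changed in 1 direction formed 57 runs of 3 or more, 34 higher and 23 lower in LM9, by a rule made after the values were seen. The longest was a run of 10 interferon-inducible genes of the *Ifi200* family on chromosome 1 (173349547 to 174031755, *Aim2* to *Ifi205*), with a median log2 fold change of 2.38. Runs of 6 *Ifit* genes, of 6 *Oas* genes, of 6 genes of the *H2-T* region on chromosome 17 and of 5 *Gbp* genes on chromosome 3 and 5 on chromosome 5 were also higher, the last with a median of 3.97. A run of 6 *Ly6* genes on chromosome 15 had a median of 1.99. The 7 *Ugt1a* genes share exons, so their common rise (median 1.64) may be 1 measurement counted 7 times. Lower runs included *Dcn*, *Lum* and *Kera* (median −3.52), *Lgr5*, *Tspan8*, *Ptprb* and *Kcnmb4* (median −3.92), and 5 *Pcdhb* genes (median −2.21). MHC class II genes also formed lower runs, *H2-Ab1*, *H2-Aa* and *H2-Eb1* (median −1.795) and *H2-DMa*, *H2-DMb2* and *H2-DMb1* (median −1.222). So did the *C1q* genes with *Epha8* (median −1.816). Genes of a run are not independent, since copies can share reads.

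The HR1 tumours were set beside both lines as a description. Of the 66 genes at 3 counts or fewer in every LM9 tumour, 12 had at least 1 CPM in all 3 HR1 tumours and 27 in none. Of the 11 genes at 3 counts or fewer in every LM1 tumour, 0 had at least 1 CPM in all 3 HR1 tumours and 7 in none. *Irx1*, almost absent from LM9, was at 21.5, 16.3 and 17.5 CPM in the HR1 tumours, scaled by library total. *Gabra4* was at 0, 0 and 0.104 CPM and *Igf2bp3* at 0, 0.18 and 0.0521 CPM.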
